A study of Mus musculus with 6 samples.

Results

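The genes of the cytosolic ribosomal proteins were compared between activated ILC2s given CD200-Fc and activated ILC2s given isotype control. They were taken as the protein coding genes of the count file whose symbol is Rpl, Rps, Rplp or Rpsa with its number, which leaves out the Rps6k kinases. There were 82 such genes among 22554 genes in all, 50 of the large subunit and 32 of the small subunit. Among them were 5 "-like" paralogs (Rpl22l1, Rpl36al, Rpl39l, Rpl7l1 and Rps27l), each a second gene for a protein close to a core ribosomal protein.

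Group 2 innate lymphoid cells (ILC2s) are tissue lymphocytes that secrete type 2 cytokines, and CD200-Fc is a fusion protein that engages their inhibitory receptor CD200R. The question of the study was how this engagement changes the transcriptome of activated ILC2s. All 6 libraries came from lung ILC2s of wild-type BALB/cByJ mice, aged 8 weeks by the labels, that had received rmIL-33 intranasally in 3 doses of 0.5 µg. The sorted cells were then kept for 24 h with rmIL-2 and rmIL-7 at 10 ng/mL each, with either CD200-Fc (3 libraries, labelled 35, 36 and 38) or the isotype control (3 libraries, labelled 16, 17 and 18), both at 10 µg/mL. Legends in the paper also name rmIL-33 in the culture. The labels and the sequencing section of the methods give only rmIL-2 and rmIL-7 there. The general culture section lists rmIL-33 as "and/or", at 10 ng/mL, so its presence in these cultures is uncertain. The study's methods give female mice, while a line of its reporting form speaks of male mice. No source says whether the libraries of a group came from separate mice or cultures, or whether mice were pooled, so p-values here set differences against the spread among the libraries, and that spread may be technical only.

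The cytosolic ribosome has a large subunit, which forms peptide bonds and holds the exit tunnel of the new protein, and a small subunit, which reads the mRNA. The mRNAs of nearly all ribosomal proteins start with a run of pyrimidines, the 5′ terminal oligopyrimidine (TOP) tract, through which mTORC1 and the binding protein Larp1 control their translation and stability. Lymphocytes make more ribosomes when they are activated and grow.

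Libraries held 24038189 to 33321709 expected counts with CD200-Fc and 20096555 to 23239853 with isotype, so that counting error is small for these genes. All 14 listed ILC2 markers were present, with a summed level of 12105 to 12233 CPM (counts scaled to library size) with CD200-Fc and 11373 to 11530 CPM with isotype, although Thy1 was low at 12.1 CPM over all libraries. Of these markers 4 were called higher with CD200-Fc and 1 lower (together Arg1, Il13, Il2ra, Klrg1 and Ptprc), beside 1.48% higher and 0.595% lower of all genes tested. Il5 and Il2ra had the highest levels of the 14, and such a sum does not measure how many cells are ILC2s. T cell markers summed to 28.3 to 32.4 CPM with CD200-Fc and 28.9 to 32.3 CPM with isotype, with Cd4 listed at 0. Markers of B cells summed to 20.2 to 24.7 CPM with CD200-Fc and 15.9 to 20.7 CPM with isotype, and those of red cells to 6.06 to 6.99 CPM with CD200-Fc and 8.34 to 8.95 CPM with isotype. Epithelial markers summed to 30.3 to 36.7 CPM with CD200-Fc and 27.2 to 27.4 CPM with isotype, mostly Epcam, with Krt8, Scgb1a1 and Sftpc at 0. Those of ILC3s summed to 14.5 to 20.8 CPM with CD200-Fc and 21.045 to 31.7 CPM with isotype, and those of mast cells or basophils to 7.02 to 15.2 CPM with CD200-Fc and 4.19 to 7.32 CPM with isotype. Ccr3, the eosinophil marker listed, had 5.66 to 10.5 CPM with CD200-Fc and 4.67 to 5.08 CPM with isotype. No marker outside the ILC2 list was called. Their part in the results was not tested.

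The ribosomal protein genes as a whole took a smaller share of the counts with CD200-Fc. Their summed share was 3.14%, 3.25% and 3.11% of expected counts in the CD200-Fc libraries 35, 36 and 38, against 3.40%, 3.64% and 3.49% in the isotype libraries 16, 17 and 18. The groups did not overlap, and the means were 3.17% ± 0.0765 with CD200-Fc and 3.51% ± 0.122 with isotype (SD, n = 3 each), a difference of -0.345 percentage points. No test was made of a sum over genes, and 3 libraries against 3 could not give an exact permutation p below 0.1. In bulk samples, fewer cells of a type and less RNA per cell cannot be told apart, and a share cannot show the amount of RNA per cell.

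Both subunits had a lower share with CD200-Fc, by a similar ratio. Large subunit genes held 1.86%, 1.91% and 1.84% of counts with CD200-Fc, against 2.01%, 2.15% and 2.06% with isotype, a ratio of means, CD200-Fc over isotype, of 0.903. Small subunit genes held 1.28%, 1.34% and 1.27% with CD200-Fc, against 1.40%, 1.49% and 1.43% with isotype, a ratio of 0.900. The log2 ratio of large to small subunit counts was 0.54, 0.51 and 0.54 with CD200-Fc and 0.53, 0.53 and 0.53 with isotype. The group means differed by 0.0048. This was less than the SD of 0.016 with CD200-Fc and more than the SD of 0.0016 with isotype.

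**Figure D1:**
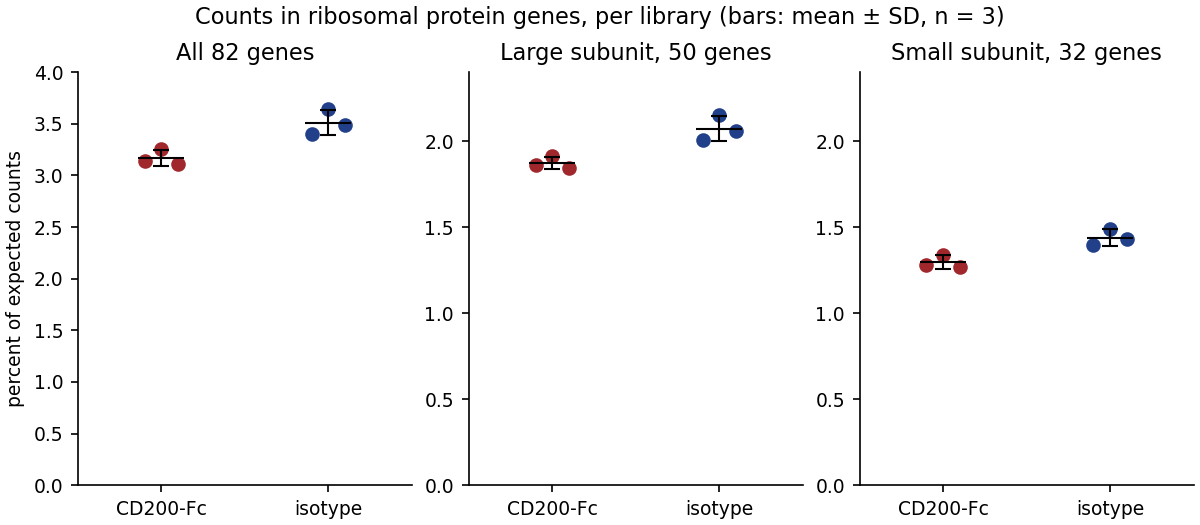
Percent of each library's expected counts (vertical axis) in all 82 ribosomal protein genes and in the genes of each subunit, with 1 point per library and bars for the mean ± SD of 3 libraries. In each panel the 3 CD200-Fc libraries lie below the 3 isotype libraries, from 3.11% to 3.25% against 3.40% to 3.64% for all genes.

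Gene by gene, the differences were small and nearly all in the same direction. Of the 82 genes, 81 passed the filter on low counts and were tested with edgeR's quasi-likelihood test among 14124 genes. The level fell in 6 of them at an adjusted p under 0.05 (Rpl17, Rpl27, Rpl28, Rpl32, Rps14 and Rps16), rose in none, and the other 75 did not pass the test. Over all genes tested, 0.595% were called lower and 1.48% higher. At an unadjusted p under 0.05, 60 ribosomal protein genes were lower and 0 higher, beside 7.69% of all genes lower and 9.43% higher. DESeq2 called 35 of the 81 lower and 0 higher, beside 3.5% lower and 6.38% higher of the genes to which it gave an adjusted p.

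The log2 fold change, CD200-Fc over isotype, was negative in 79 of the 81 genes, against 50.8% of all genes tested. Its median over the ribosomal protein genes was -0.15 (quartiles -0.19 and -0.12, range -0.27 to 0.03), while the median of all genes tested was -0.0035. In 56 of the 81 genes all 3 CD200-Fc libraries lay below all 3 isotype libraries, a share of 69.1% where all genes tested gave 11.2%. In none did they all lie above, where all genes tested gave 11.6%. The large subunit had a median of -0.14 with 4 of 49 tested genes called, and the small subunit a median of -0.16 with 2 of 32 called.

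**Figure D2:**
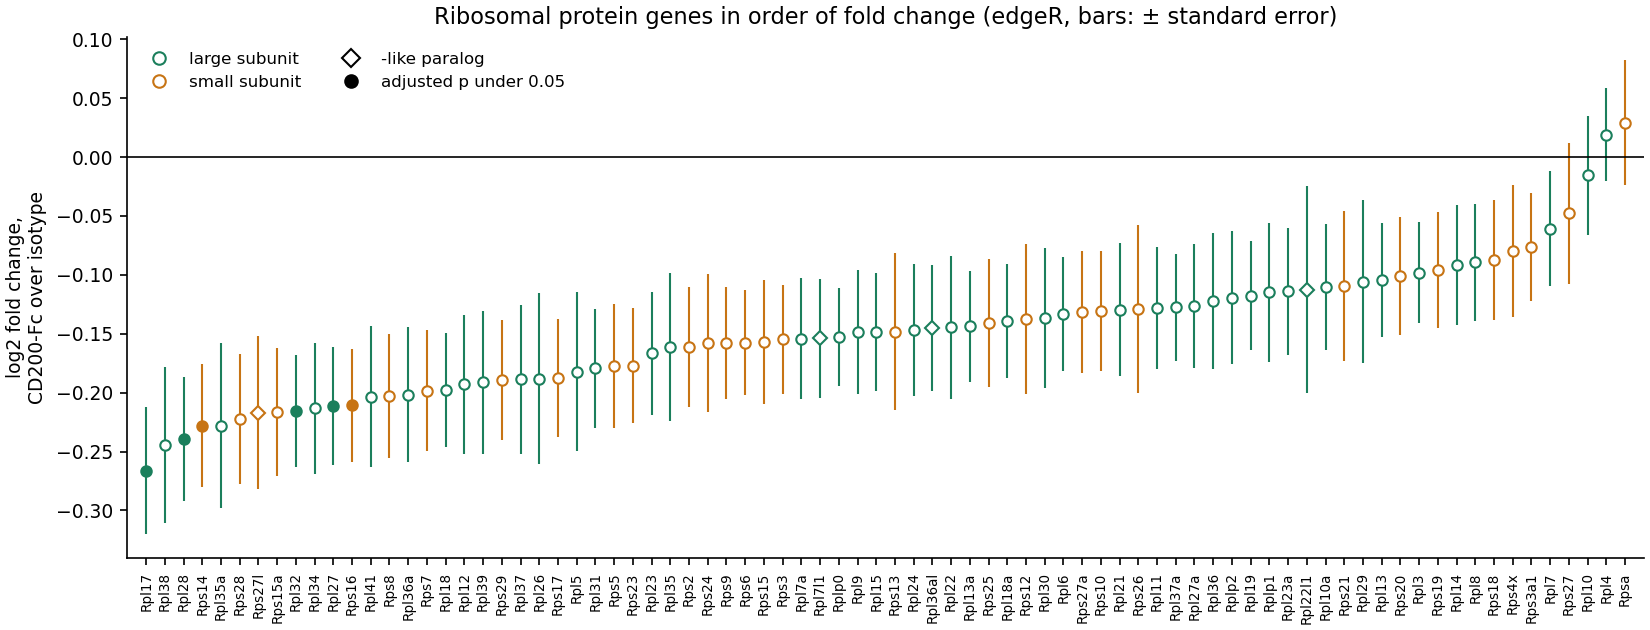
Log2 fold change, CD200-Fc over isotype (vertical axis), of 80 of the tested genes in rising order, with bars for the standard error, colour for the subunit, diamonds for the paralogs and filled symbols for the 6 genes with an adjusted p under 0.05. Only Rpl4 and Rpsa lie above 0, and both subunits are spread over the whole order.

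The calls did not hold when any library but isotype 16 was left out, while most fold changes stayed negative. Without any one of CD200-Fc libraries 35, 36 and 38 or isotype libraries 17 and 18, 0 ribosomal protein genes were called, where 0.117%, 0.131%, 0.179%, 0.24% and 0.165% of all genes were called lower. Without isotype library 16, 8 were called, beside 0.571% of all genes. In these fits 78 to 80 of the 81 fold changes were negative. The fits share most of their libraries. In 56 genes the groups did not overlap, so leaving out a library could hardly change the sign. The count is thus not a separate check of direction. With an offset for transcript length, 1 gene (Rpl17) was called, beside 0.644% of all genes, and the median log2 fold change was -0.076.

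Among the large subunit genes, Rpl17, whose protein lies near the exit tunnel, had the lowest fold change. Its level was 218, 222 and 211 CPM with CD200-Fc, against 249, 273 and 260 CPM with isotype, a log2 fold change of -0.27 ± 0.054 (SE, adjusted p = 0.0224). Rpl28, a protein of animal ribosomes that budding yeast lacks, had 205, 200 and 200 CPM with CD200-Fc, against 230, 248 and 236 CPM with isotype (log2 fold change -0.24, adjusted p = 0.0337). In both genes the CD200-Fc libraries were close together and the isotype libraries higher, with library 17 highest.

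Rpl32 had 658, 667 and 649 CPM with CD200-Fc, against 725, 806 and 762 CPM with isotype (log2 fold change -0.22, adjusted p = 0.0353). Rpl27 had 351, 374 and 354 CPM with CD200-Fc, against 399, 426 and 424 CPM with isotype (log2 fold change -0.21, adjusted p = 0.0459). Both are core proteins of the large subunit, and in both the groups were apart in every library.

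Rpl38 is the large subunit protein whose loss in mice disturbs the translation of homeobox mRNAs and the pattern of the skeleton. It had 271, 302 and 265 CPM with CD200-Fc, against 318, 361 and 313 CPM with isotype, a log2 fold change of -0.24 that did not pass the test (adjusted p = 0.0706). Rpl35a, of which the human gene is mutated in some patients with Diamond-Blackfan anaemia, had 98.5, 98.1 and 104 CPM with CD200-Fc, against 109, 128 and 115 CPM with isotype (log2 fold change -0.23, adjusted p = 0.109). These genes had changes as large as those called, with standard errors of 0.066 and 0.070, against 0.048 to 0.054 in the 6 called genes.

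At the other end of the large subunit stood Rpl4, which reaches into the exit tunnel. It had 1084, 1071 and 1053 CPM with CD200-Fc, against 1059, 1051 and 1056 CPM with isotype, a log2 fold change of 0.019 (adjusted p = 0.853) that was -0.0038 with upper-quartile scaling. Rpl10, the protein that joins late in the maturation of the large subunit, had 683, 743 and 656 CPM with CD200-Fc, against 688, 708 and 709 CPM with isotype (log2 fold change -0.015, adjusted p = 0.915, and 0.062 with the length offset). The groups overlapped in both genes. Rpl7 and Rpl8 had log2 fold changes of -0.061 and -0.089 and overlapped as well.

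The stalk proteins, which recruit elongation factors to the large subunit, were Rplp0, Rplp1 and Rplp2. Rplp0, the base of the stalk, had 1130, 1092 and 1103 CPM with CD200-Fc, against 1198, 1276 and 1223 CPM with isotype (log2 fold change -0.15, adjusted p = 0.0728). Its groups did not overlap, whereas those of Rplp1 and Rplp2 did, with log2 fold changes of -0.11 and -0.12. None of the 3 passed the test.

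In the small subunit the level fell in Rps14 and Rps16. Rps14, whose human gene lies in the region lost in the 5q- syndrome, had 381, 394 and 386 CPM with CD200-Fc, against 428, 482 and 449 CPM with isotype (log2 fold change -0.23 ± 0.052, SE, adjusted p = 0.0391). Rps16, whose tail reaches the decoding site, had 346, 331 and 340 CPM with CD200-Fc, against 383, 404 and 389 CPM with isotype (log2 fold change -0.21, adjusted p = 0.0388). In both, every CD200-Fc library was below every isotype library.

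Rps28, at the exit of the mRNA channel, had 161, 168 and 156 CPM with CD200-Fc, against 183, 193 and 189 CPM with isotype (log2 fold change -0.22, adjusted p = 0.0539). Rps15a had 195, 201 and 186 CPM with CD200-Fc, against 219, 233 and 225 CPM with isotype (log2 fold change -0.22, adjusted p = 0.0566). Neither passed the threshold, and in neither did the groups overlap.

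Rpsa, also known as a laminin receptor, had 881, 994 and 866 CPM with CD200-Fc, against 875, 901 and 911 CPM with isotype, a log2 fold change of 0.029 (adjusted p = 0.831) that was -0.035 without CD200-Fc library 36, the highest of all. Rps4x and Rps3a1 had log2 fold changes of -0.080 and -0.076 and their groups overlapped. Rps9, among the small subunit genes with the highest CPM, had a log2 fold change of -0.16 (adjusted p = 0.102), and its groups did not overlap.

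The genes moved together from library to library within each group. After the group means were taken out, the Pearson correlation between 2 ribosomal protein genes over the 6 libraries had a median of 0.72 (quartiles 0.44 and 0.86) and was positive in 90.6% of 3240 pairs. The pairs share the same libraries and scaling factors. The lowest of the 6 libraries was CD200-Fc 38 in 52 genes, CD200-Fc 35 in 19 and CD200-Fc 36 in 9. Isotype 17 was the highest in 66 genes. These counts and correlations were not made over all genes. They cannot show whether the pattern is particular to ribosomal protein genes.

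The median deviation from each gene's mean over all libraries was -0.085, -0.018 and -0.11 (log2 CPM) in CD200-Fc libraries 35, 36 and 38, against 0.024, 0.13 and 0.071 in isotype libraries 16, 17 and 18. Of the pairs across the groups, CD200-Fc 36 and isotype 16 lay closest to each other. Without isotype library 17 the median log2 fold change was -0.12, and without CD200-Fc library 36 it was -0.18. The coefficient of variation of single genes within a group had a median of 3.73% with CD200-Fc and 3.62% with isotype.

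**Figure D3:**
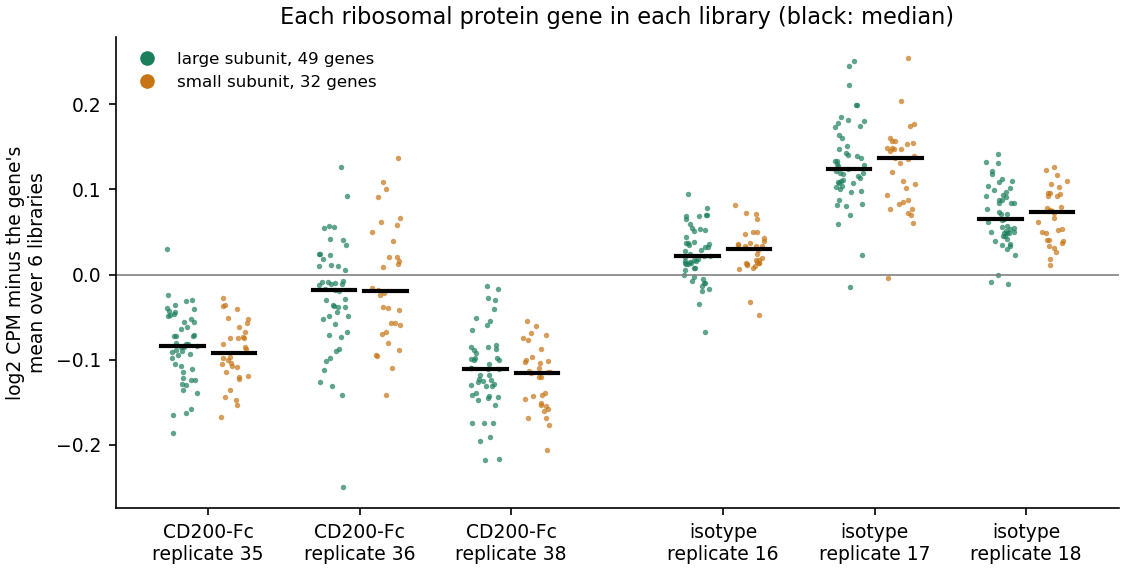
Log2 CPM of each tested ribosomal protein gene minus its mean over 6 libraries (vertical axis), by library and subunit, with 1 point per gene and a black bar for the median. The medians of the large and small subunit lie close together in each library, and those over all the genes run from -0.11 in CD200-Fc 38 to 0.13 in isotype 17.

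The mean level of the genes per kb of transcript had a median of 532 CPM per kb over all libraries, with quartiles of 316 and 727. The order of the levels was almost the same in both groups (rank correlation of the group means 0.996 over 81 genes, which share their annotation and scaling). The highest was Rpl41, which encodes a very short basic peptide. The lowest was Rps20, whose annotated transcript in GENCODE M21 is long, so that its value per kb is uncertain.

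The paralogs were set against their parent genes within each library, which needs no scaling between libraries. None of the 4 tested paralogs passed in edgeR (3 were lower at an unadjusted p under 0.05), while DESeq2 called 2 lower and limma 0. Unadjusted, 60 of all 81 ribosomal protein genes and 7.69% of all genes were lower. DESeq2 called 3.5% lower of the genes to which it gave an adjusted p, and limma 1.15% of all genes. With only 4 paralogs tested, these counts cannot show whether paralogs stand apart from the other ribosomal protein genes. The coding sequences of Rps27l, a gene that p53 can induce, and Rps27 are printed because this pair had the largest difference in ratio; capitals mark the bases that differ, and the genes lie at chr9:66946086-66949516 (plus strand) and chr3:90212522-90213651 (minus strand) of GRCm38 with the sequences of GENCODE M21.
Rps27l: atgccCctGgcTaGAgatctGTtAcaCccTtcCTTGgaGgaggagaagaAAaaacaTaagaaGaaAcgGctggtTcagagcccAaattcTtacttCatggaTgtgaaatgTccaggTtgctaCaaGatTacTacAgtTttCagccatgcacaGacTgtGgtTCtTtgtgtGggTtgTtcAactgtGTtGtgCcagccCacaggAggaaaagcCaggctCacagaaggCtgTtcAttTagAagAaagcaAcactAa
Rps27: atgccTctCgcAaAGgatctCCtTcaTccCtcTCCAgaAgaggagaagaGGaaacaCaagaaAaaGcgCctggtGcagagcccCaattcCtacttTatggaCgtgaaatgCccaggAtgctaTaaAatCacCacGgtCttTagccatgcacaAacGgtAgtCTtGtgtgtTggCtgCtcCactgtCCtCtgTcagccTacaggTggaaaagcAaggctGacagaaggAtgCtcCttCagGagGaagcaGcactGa
The 2 sequences have 255 bases each and differ at 61 of them, and the longest identical stretch is 11 bases.

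Rps27l had 314, 343 and 311 CPM with CD200-Fc, against 356, 414 and 355 CPM with isotype (log2 fold change -0.22, adjusted p = 0.10). Rps27 had 293, 338 and 300 CPM with CD200-Fc, against 308, 330 and 323 CPM with isotype (log2 fold change -0.048, adjusted p = 0.747, and 0.061 with the length offset). The groups of Rps27l were apart and those of Rps27 overlapped. The log2 ratio of Rps27l to Rps27 was 0.10, 0.023 and 0.051 with CD200-Fc, against 0.21, 0.33 and 0.13 with isotype, a difference of -0.16. In the exact two-sided permutation test this gave p = 0.1, the smallest that 3 libraries against 3 can give, and 0.2 after adjustment over the 4 pairs compared.

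Rpl7l1, whose yeast relative acts in ribosome assembly, had 211, 210 and 209 CPM with CD200-Fc, against 231, 240 and 230 CPM with isotype (log2 fold change -0.15, adjusted p = 0.129). Its log2 ratio to Rpl7 was -1.46, -1.54 and -1.42 with CD200-Fc, against -1.40, -1.38 and -1.36 with isotype. The groups did not overlap, and the difference was -0.092 (exact permutation p = 0.1, adjusted 0.2).

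For the remaining pairs the groups overlapped in the ratio. Rpl36al, a paralog of Rpl36a with 87.85% of its coding bases identical, had a log2 ratio of 1.47, 1.40 and 1.46 to Rpl36a with CD200-Fc, against 1.35, 1.42 and 1.37 with isotype (difference 0.059, exact permutation p = 0.2, adjusted 0.267). Rpl22l1 had a log2 ratio of -0.81, -0.63 and -0.82 to Rpl22, a protein needed for the development of alpha-beta T cells in mice, with CD200-Fc, against -0.84, -0.77 and -0.74 with isotype (difference 0.027, exact permutation p = 0.8, adjusted 0.8). Without CD200-Fc library 36 this difference was -0.034.

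Rpl39l, known in mice for its expression in the testis, was barely detected, with 5, 2 and 4 counts with CD200-Fc, against 8, 6 and 6 counts with isotype, and was not tested. Its parent Rpl39 had 233, 252 and 214 CPM with CD200-Fc, against 261, 267 and 270 CPM with isotype (log2 fold change -0.19, adjusted p = 0.119). Reads that fit several copies were divided by expectation maximization, so that counts of ribosomal protein genes and of their processed pseudogenes are uncertain. The 171 pseudogenes named for ribosomal proteins held 0.104%, 0.112% and 0.104% of counts with CD200-Fc, against 0.114%, 0.127% and 0.119% with isotype.

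**Figure D4:**
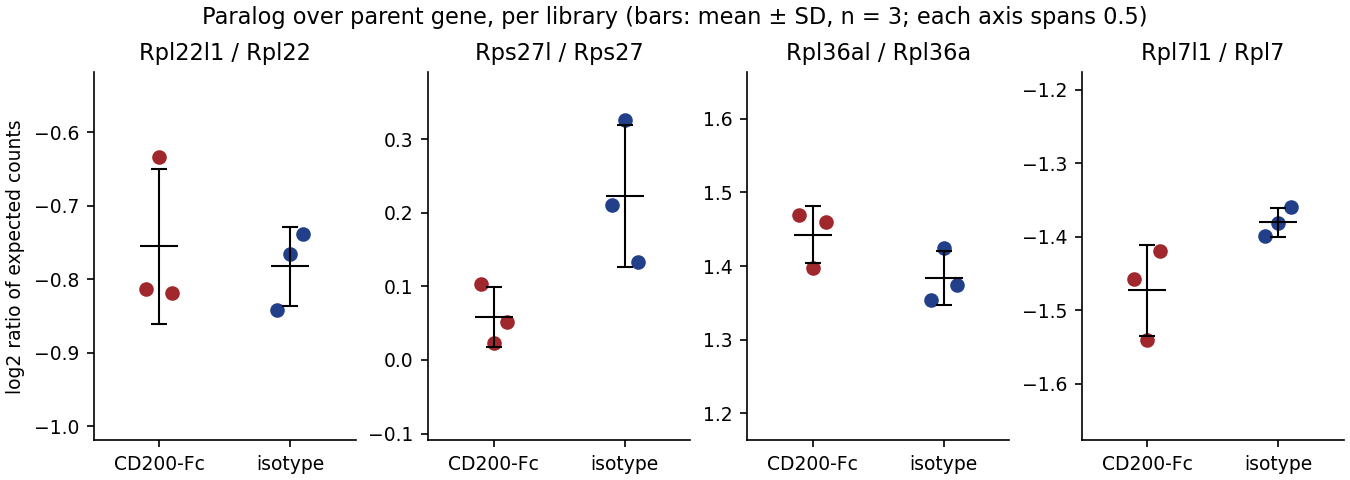
Log2 ratio of the expected counts of each paralog to those of its parent gene (vertical axis, each spanning 0.5), with 1 point per library and bars for the mean ± SD of 3 libraries. The groups are apart for Rps27l over Rps27 and Rpl7l1 over Rpl7 and overlap for Rpl22l1 over Rpl22 and Rpl36al over Rpl36a.

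Coding length, transcript length, GC content and mean CPM were set against the fold change, and coding length had the largest correlation among ribosomal protein genes. The ribosomal protein genes had a median coding length of 456 nt, against 1350 nt for all tested protein coding genes, while their median GC content was 51.6% against 50.5%. Over the 81 genes, the log2 fold change had a Pearson correlation of 0.41 (Spearman's rho 0.33) with log2 coding length. It was 0.49 (rho 0.43) over the 49 genes of the large subunit and 0.28 (rho 0.18) over the 32 of the small subunit, and over all tested protein coding genes rho was 0.22. Over the 81 genes, Pearson's r was 0.31 (rho 0.28) for log2 mean CPM, 0.28 (rho 0.21) for log2 transcript length and 0.014 (rho 0.041) for GC content. Within the small subunit, log2 mean CPM had an r of 0.28 (rho 0.17), about that of coding length. Over all tested protein coding genes, rho was 0.26 for transcript length and -0.21 for GC content, so coding length was not the strongest there. Genes are not independent replicates, and they share libraries and scaling.

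Within each class of coding length the ribosomal protein genes had a lower median fold change than the other protein coding genes. Under 300 nt the median log2 fold change was -0.19 for 10 ribosomal protein genes and -0.11 for 245 other genes. Between 300 and 450 nt it was -0.16 for 29 and -0.072 for 590, and between 450 and 600 nt it was -0.15 for 19 and -0.047 for 698. Between 600 and 900 nt it was -0.14 for 20 and -0.038 for 1596, and between 900 and 1500 nt it was -0.098 for 3 and 0.0026 for 3237. The 6 called genes all lay between 300 and 600 nt.

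**Figure D5:**
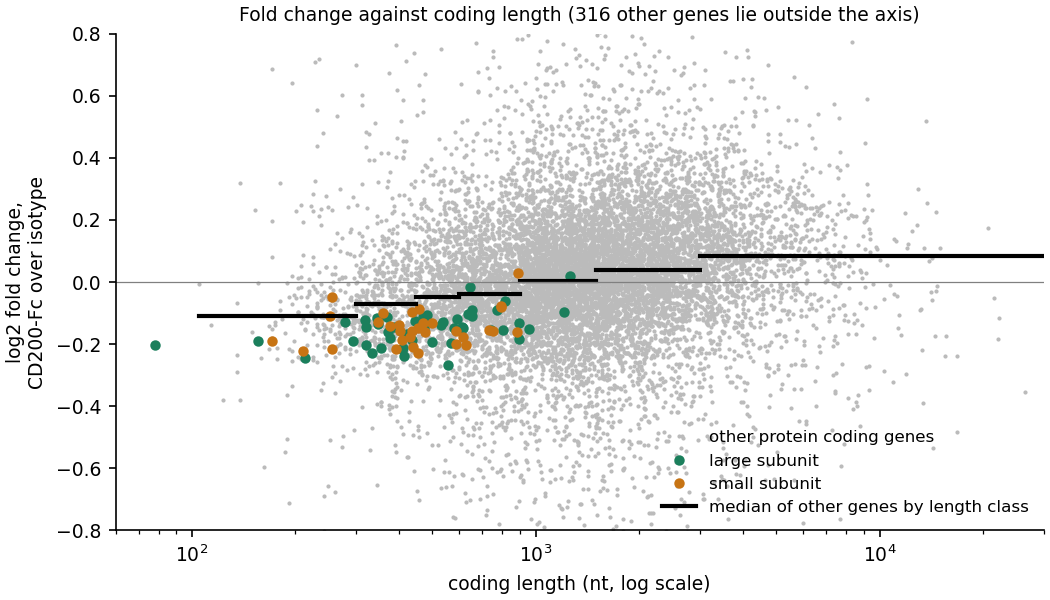
Log2 fold change, CD200-Fc over isotype (vertical axis), against coding length in nt (log scale), for ribosomal protein genes by subunit (coloured), other protein coding genes (grey) and the median of the other genes in each length class (black lines). Most ribosomal protein genes lie below the black line, and the line itself runs from -0.11 under 300 nt to 0.084 from 3000 nt upward.

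The sequence around the start was examined because TOP mRNAs start in a pyrimidine run. RefSeq promoter windows (GRCm38.p6) matched 62 of the 82 genes. The sequences run from 30 bases before to 30 bases from the RefSeq start, with the longest run of C or T in capitals, for 3 of the genes with low fold changes (Rpl28 at chr7:4792935-4792994, Rpl38 at chr11:114668550-114668609 and Rps16 at chr7:28350659-28350718, all plus strand) and for 3 of those with the highest (Rpl4 at chr9:64173357-64173416 and Rpsa at chr9:120127736-120127795, plus strand, and Rps27 at chr3:90213619-90213678, minus strand). They were chosen after their values were seen, to show long and short runs.
Rpl28: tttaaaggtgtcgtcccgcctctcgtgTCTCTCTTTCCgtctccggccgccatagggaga
Rpl38: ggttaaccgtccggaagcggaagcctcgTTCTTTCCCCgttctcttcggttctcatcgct
Rps16: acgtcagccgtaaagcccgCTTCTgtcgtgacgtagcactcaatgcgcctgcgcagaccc
Rpl4: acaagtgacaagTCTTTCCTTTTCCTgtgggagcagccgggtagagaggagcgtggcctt
Rpsa: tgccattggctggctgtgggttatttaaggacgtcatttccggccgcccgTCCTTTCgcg
Rps27: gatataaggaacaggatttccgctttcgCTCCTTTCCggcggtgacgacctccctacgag
The runs had 11 bases in Rpl28, 10 in Rpl38 and 5 in Rps16, and 14 in Rpl4, 7 in Rpsa and 9 in Rps27. Of others at the ends of the fold change, Rpl27 and Rps28 had 5 bases and Rpl10 had 4, so that long and short runs occurred at both ends. The RefSeq start lies 91 bases from the GENCODE start in Rpl28, 56 in Rpl38, 37 in Rps16, 12 in Rpl4, 77 in Rpsa and 3 in Rps27, so the first base of the mRNA in these cells is uncertain.

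A run of 8 or more was found in 32 of the 62 genes, 51.6%, against 22.8% of 27025 promoters. For the 62 genes the start nearest the GENCODE start was used, and for all genes the first one listed, so the shares here and below are not fully alike. In Rps24, Rpl18, Rps2 and Rps10 the start used lay 3553, 2614, 1947 and 1425 bases from the GENCODE start. The median log2 fold change was -0.15 in the 31 tested genes with such a run and -0.15 in the 30 with a shorter one. In the whole window of 300 bases, both strands, CGGAAG was present in 69.4% of the 62 genes against 17.2% of all promoters, AAGATGG in 14.5% against 6.48%, and TATAAA in 9.68% against 14.2%. A match is a description of letters and not of a bound factor.

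The name rule leaves out some ribosomal proteins, among them Fau and Rack1. Rack1, a scaffold on the small subunit, fell to 590, 571 and 553 CPM with CD200-Fc, against 651, 685 and 652 CPM with isotype (log2 fold change -0.21 ± 0.046, SE, adjusted p = 0.0291). Fau, which is made as a fusion with a ubiquitin-like protein, had a log2 fold change of -0.17 and did not pass (adjusted p = 0.132). The call of Rack1 was lost without any one of the libraries except isotype 16 (adjusted p up to 0.125).

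Of 24 translation factors and other TOP transcripts, 1 fell (Gas5) and 0 rose in edgeR (9 lower and 1 higher at an unadjusted p under 0.05, where all genes gave 7.69% and 9.43%), and DESeq2 and limma each called 3 lower. Of all genes, edgeR called 0.595% lower and limma 1.15%. DESeq2 called 3.5% lower of the genes to which it gave an adjusted p. The median log2 fold change was -0.069. Gas5, a noncoding RNA that hosts small nucleolar RNAs, had 92.4, 86.1 and 96.5 CPM with CD200-Fc, against 106, 112 and 115 CPM with isotype (log2 fold change -0.28, adjusted p = 0.0480), a call lost without any one library (adjusted p up to 0.168). Eef1a1, which brings aminoacyl-tRNA to the ribosome, had 2907, 2985 and 2873 CPM with CD200-Fc, against 2754, 2601 and 2912 CPM with isotype (log2 fold change 0.084, adjusted p = 0.333). Among TOP transcripts the direction was thus less even than among ribosomal protein genes, with 20 of 24 negative, a difference that was not tested.

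Of 18 genes for the control of TOP translation by mTORC1, 0 passed in edgeR (4 lower and 1 higher at an unadjusted p under 0.05), while DESeq2 called 1 lower and limma 0. Over all genes tested, edgeR called 0.595% lower and 1.48% higher, and 7.69% were lower and 9.43% higher unadjusted. DESeq2 called 3.5% lower of the genes to which it gave an adjusted p, and limma 1.15% of all genes. Larp1, the TOP-binding protein, had 193, 190 and 181 CPM with CD200-Fc, against 227, 216 and 198 CPM with isotype (log2 fold change -0.19, adjusted p = 0.132). Mtor, the kinase of mTORC1, had a log2 fold change of 0.098 (adjusted p = 0.693). Of 21 genes for ribosome assembly and chaperones, 0 passed in edgeR (5 lower and 1 higher unadjusted), 4 were called lower by DESeq2 and 1 by limma, and the median log2 fold change was -0.10. These counts stand beside the same shares as above. Fbl, the nucleolar methyltransferase fibrillarin, had 131, 137 and 132 CPM with CD200-Fc, against 154, 168 and 152 CPM with isotype (log2 fold change -0.25, adjusted p = 0.0510), and it passed with DESeq2 (adjusted p = 0.00427).

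Mitochondrial ribosomal proteins, which belong to a separate ribosome that makes the proteins of the mitochondrial genome, had a median log2 fold change of -0.12. Of 78 genes, 0 passed in edgeR (21 lower and 1 higher at an unadjusted p under 0.05). DESeq2 called 2 lower, beside 3.5% of the genes to which it gave an adjusted p. Limma called 1 lower, beside 1.15% of all genes. Of all genes, edgeR called 0.595% lower, and 7.69% were lower and 9.43% higher unadjusted. Among the 78, 69 had a negative fold change (88.5%, against 50.8% of all genes) and 27 had all CD200-Fc libraries below all isotype libraries (34.6%, against 11.2%). Their share of counts was 0.521%, 0.540% and 0.527% with CD200-Fc, against 0.558%, 0.609% and 0.564% with isotype. Of 18 tested genes of the mitochondrial genome, 15 had a negative fold change, 1 fell and 17 did not pass, and their share of counts overlapped between the groups, at 0.743%, 0.936% and 0.958% with CD200-Fc and 0.981%, 0.833% and 1.06% with isotype. The gene that fell, mt-Rnr1, an RNA of the mitochondrial ribosome, fell to 244, 234 and 248 CPM with CD200-Fc, against 334, 343 and 384 CPM with isotype (log2 fold change -0.55, adjusted p = 0.000338), and was called under every alternative run.

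Of 5 tested RNAs that stay in the nucleus, all 5 had a negative log2 fold change, where 50.8% of all genes did. The share of all genes called lower was 0.595% in edgeR and 1.15% in limma. In DESeq2 it was 3.5% of the genes given an adjusted p. DESeq2 called 0 of the 5 RNAs lower and limma 2. In edgeR 1 of the 5 RNAs fell, Rn7sk, a small RNA that holds the elongation factor P-TEFb inactive. It had 4.29, 4.35 and 3.81 CPM with CD200-Fc, against 7.84, 8.24 and 6.22 CPM with isotype (log2 fold change -0.84, adjusted p = 0.0405), a call lost without any one library (adjusted p up to 0.149). Malat1 had 439, 511 and 632 CPM with CD200-Fc, against 625, 645 and 796 CPM with isotype (log2 fold change -0.38, adjusted p = 0.0850), and its groups overlapped. The part of RNA quality in the ribosomal protein results was not tested.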

How the data were processed

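RNA of 6 libraries, 3 CD200-Fc and 3 isotype, was sequenced on a NextSeq instrument. Per the labels, the submitters' notes name bcl2fastq 2.17.1.14, STAR 2.5.3a, mm10 and Partek. The authors deposited expected counts of 22554 genes, estimated by expectation maximization and not normalized. They also deposited a normalized signal for 17194 genes, which equalled the count plus 1 times 1 factor per library in 100% of values (within 1%). No source used here names the annotation release. All 82 genes had coordinates identical to GENCODE M21, from which lengths were taken.

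Counts were rounded, kept by filterByExpr (14124 genes) and TMM-scaled, and the groups were compared by the quasi-likelihood test of edgeR 4.0.16 (R 4.3.3), in place of the Partek model of the study, with Benjamini-Hochberg adjustment over all tested genes and a threshold of 0.05. The common coefficient of variation was 10.8%. Log2 CPM used a prior count of 2. Ratios of paralogs were compared by the exact permutation test (scipy 1.17.1). The scripts were tested on simulated data. Alternatives were other scalings, filters and tools (DESeq2 1.42.0, limma 3.58.1), loess offsets for length and GC content (span 0.3) and leaving out each library.

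The genes and lists were chosen with earlier results of these data known. Named genes were those called, the 4 of lowest and the 4 of highest fold change and the 3 of highest CPM in each subunit, all paralogs and parents, and called genes of the lists; other genes were named as examples after their values were seen. Paralogs of Rpl3, Rpl10 and Rps4x were not analysed here, and some items are not reported here.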

Additional observations from a re-analysis of the deposited data

How the results depend on the processing

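The number of ribosomal protein genes called lower was 6, and it was 12 with total counts (0.758% of all genes called lower). With DESeq2 it was 35 (3.5% of the genes to which it gave an adjusted p). With limma it was 17 on the normalized signal plus 1 (1.15%) and 17 on the signal plus 0.1 (1.02%). With at least 10 counts in every sample it was 14 (1.06%). It was 1 with the transcript length offset (0.644%) and 3 with an offset for coding length (0.835%), which was chosen after seeing the data. Leaving out 1 library gave 0 to 8. None was called higher in any of these. With the length and coding length offsets, the median log2 fold change was -0.0758 and -0.0862 over all ribosomal protein genes, -0.0717 and -0.0862 for the large subunit, and -0.0793 and -0.0883 for the small subunit. The cause was not tested. Without 1 library the median over all ran from -0.18 to -0.12.

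The difference in the log2 ratio of large to small subunit counts was 0.0048, -0.00408 with medians of log2 CPM, and -0.000397 to 0.0142 without 1 library. That of Rpl22l1 over Rpl22 was -0.0336 to 0.0585 without 1 library. Among single genes near 0, Rpl10 had 0.0621 and 0.0215 with the length and coding length offsets, and -0.0668 to 0.0256 without 1 library. Rpl4 had -0.00381 with upper-quartile scaling and -0.00551 with limma at either added value. Rps27 had 0.0615 and 0.0513 with these offsets, and Rpsa had -0.0347 to 0.0688 without 1 library.

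No paired analysis was made, because the labels match no CD200-Fc library to an isotype library. Whether cells of both groups came from the same mice or sort is not stated. Depth limits Rpl39l, which had 2 to 8 counts. The number called depends on the test and on the libraries kept.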
